A study of Mus musculus with 9 samples.

Results

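Bone morphogenetic protein (BMP) signalling was followed through 10 genes in mouse embryonic stem cells (mESCs) that lack RING1B or carry a RING1B without E3 ligase activity. The genes were chosen by name and role, with earlier results of these data known. They are the ligands Bmp2, Bmp4 and Bmp7, the secreted antagonist Nog, the inhibitory SMADs Smad6 and Smad7, and the target genes Id1, Id2, Id3 and Id4. All 10 had a probe among the 30170 tested, out of 21713 genes measured. Bmp4 had 2 probes and the other genes 1 each, which makes 11 probes, and the brighter Bmp4 probe stood for the gene. RNA was measured on 9 one-colour Agilent arrays in 3 groups of 3. WT is E14Tg2a, a male line of strain 129P2/OlaHsd with both Ring1B alleles intact. KO is Ring1B -/-, with exon 3 of the gene removed from both alleles, and I53A is Ring1B I53A/I53A, with the point mutation knocked into both alleles at the endogenous locus. Both mutant lines came from E14Tg2a, and cells of every group were grown in serum with leukaemia inhibitory factor (LIF). Each mutant genotype is described as 1 line, so the mutation and the line cannot be told apart. The study calls the 3 samples of a group biological replicates, but no source used here says that they were separate cultures, so the p-values measure only how far these samples spread, and that spread may be technical. A label other than the title carries replicate number 1 for all 3 KO samples, and the numbers used here come from the titles.

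BMPs are secreted dimers of the TGF-β superfamily. They bring together type I and type II receptor kinases, which phosphorylate SMAD1, SMAD5 and SMAD9, and these enter the nucleus with SMAD4 and switch on target genes, the Id genes being the best known. ID proteins are helix-loop-helix proteins with no DNA-binding region of their own. They bind E proteins such as TCF3 and keep them from activating genes, and in mESCs, where serum and BMPs induce them, they act beside LIF to hold back neural differentiation. SMAD6 and SMAD7 are themselves induced by the pathway and inhibit it, and noggin (Nog) binds BMPs outside the cell. RING1B is the main E3 ligase of Polycomb repressive complex 1 (PRC1), which ubiquitinates histone H2A and keeps developmental genes silent. The design asks which changes need the whole protein and which need its ligase activity.

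Every value below comes from a 60-base probe, and the first 30 bases of those for the genes that the comparisons turn on are shown so that each value can be traced to the sequence that gave it. They are read 5′ to 3′ as the array files give them. No part is singled out, so none is in capitals.
Id1: attgttttacaatagttctatgggggtgag
Id2: tgagtgaaccttgtggactctttaattaga
Id3: tccgcatctcccgatccagacagctgagct
Id4: tgctaagtagaagagcaatcgtgaatccaa
Bmp2: cccttccagggggctgatctggccaaagta
Bmp4, brighter probe: caaccacctacacataccacacaaactgct
Bmp4, dimmer probe: gacaaatatatttataactacatattaaaa
The dimmer Bmp4 probe has a GC content of 15% against 38.3% for the brighter one.

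The RefSeq promoter table (GRCm38.p6) matched 5 of the 10 genes, namely Id2, Id3, Id4, Bmp4 and Smad6. Its windows hold 300 bases, 250 before and 50 after the annotated start. The windows were searched on both strands for GGCGCC, a GC-rich element bound by BMP SMADs, for GTCTAGAC, a palindromic SMAD-binding element, and for CACGTG, a palindromic E-box. All 3 are palindromes and do not overlap in these windows. The promoters of Id2, the only one of the 10 called, and of Id3, whose signal was higher in both mutants, are shown up to base 10 after the start, with any motif in capitals.
Id2 promoter, chr12:25096083-25096342, minus strand: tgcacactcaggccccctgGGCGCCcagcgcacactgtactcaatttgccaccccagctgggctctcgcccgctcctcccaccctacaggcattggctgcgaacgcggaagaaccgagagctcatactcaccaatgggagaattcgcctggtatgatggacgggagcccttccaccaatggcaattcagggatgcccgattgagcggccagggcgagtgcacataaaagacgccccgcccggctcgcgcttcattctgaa
Id3 promoter, chr4:136143572-136143831, plus strand: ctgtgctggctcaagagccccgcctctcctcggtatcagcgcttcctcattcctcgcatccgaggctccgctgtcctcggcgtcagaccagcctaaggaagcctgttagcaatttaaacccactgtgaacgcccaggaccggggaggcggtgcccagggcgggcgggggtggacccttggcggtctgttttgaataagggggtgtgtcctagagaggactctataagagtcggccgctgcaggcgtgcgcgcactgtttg
GGCGCC occurred once in the Id2 window, at −231 from the start, and once in that of Id4, at −148. It is present in 12% of the 27025 promoters of the table. GTCTAGAC occurred once in the Smad6 window, across the start from −4, and in 0.211% of all promoters. CACGTG occurred once in the Bmp4 window, at −188, and in 7.24% of all promoters. The Id3 window held none of these letters. All 5 windows were richer in CpG dinucleotides than the median promoter, which had 7. Id2 had 21, Id3 19, Id4 39, Bmp4 12 and Smad6 31. These matches describe the sequence, and no binding was measured.

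As a check of the arrays, each array had 45.4% to 57.5% of its tested probes well above background, and log2 signals of arrays of 1 group correlated at 0.958 to 0.972 across probes. All 9 embryonic stem cell markers measured were well above background on all 9 arrays. The Rnf2 gene, which encodes RING1B (chr1:151469398-151500991), had a log2 signal of 8.32, 8.27 and 8.47 on WT 1 to 3, of 7.35, 7.92 and 8.08 on KO 1 to 3, and of 8.69, 9.10 and 8.59 on I53A 1 to 3. Its KO change (log2 fold change −0.57, SE 0.26, limma adjusted p = 0.288) did not pass the test, and since the place of its probe relative to exon 3 was not established, it does not check the labels. The arrays lay on 2 slides, with WT 3, KO 1 and I53A 3 on the second. Since each group had a slide column to itself, group and column cannot be told apart. A gene was called when limma's adjusted p over all 30170 probes was under 0.05 and the change was more than 2-fold. Signals are log2 of the fluorescence after quantile normalisation. Groups are compared only for the same probe or the same set of probes. Where genes are ranked by brightness or summed over a list, this describes probe signal and not amounts of transcript.

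Id2 was lower in KO than in both other groups, and none of the other 9 genes was called. Id2 (chr12:25093799-25096092), which encodes an inhibitor of helix-loop-helix factors best known in lymphoid and neural cells, had a log2 signal of 8.74, 8.41 and 8.78 on WT 1 to 3. It was 7.21, 7.38 and 6.97 on KO 1 to 3 and 8.91, 8.77 and 8.74 on I53A 1 to 3. All 3 KO arrays lay below all WT and I53A arrays, and WT and I53A overlapped. The change in KO was −1.46 (SE 0.22, 95% interval −1.94 to −0.97, 2.74-fold lower, limma adjusted p = 0.00438). In I53A it was 0.16 (interval −0.32 to 0.65, adjusted p = 0.873), and the direct test of KO against I53A gave −1.62 (SE 0.22, interval −2.10 to −1.14, 3.07-fold lower, adjusted p = 0.00606). Within slide 1, with 2 arrays per group, Id2 was lower by 1.40 in KO than in WT, and there the call was lost (adjusted p = 0.0931). On slide 2, with 1 array per group and no test, KO lay 1.57 below WT. In bulk RNA, fewer cells with a transcript and less transcript per cell cannot be told apart.

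Of the 10 genes, 1 was called lower in KO and 0 higher, where 1.17% of all genes were lower and 2.92% higher. With p left unadjusted, limma put 2 higher and 2 lower under 0.05, as it did 10% and 8.29% of all genes. In I53A against WT 0 of 10 were called in either direction, where 0.29% of all genes were higher and 0.111% lower. Limma's unadjusted p was under 0.05 there for 2 higher and 1 lower, beside 5.83% and 3.94% of all genes. In KO against I53A 1 was lower and 0 higher, where 0.405% of all genes were lower and 1.06% higher, and limma's unadjusted p was under 0.05 for 1 lower and 3 higher, beside 5.38% and 6.33% of all genes. Groups did not overlap for 7 of the 10 genes in KO against WT, 4 in I53A against WT and 3 in KO against I53A, as they did not for 25.7%, 18.4% and 16% of all genes. These counts include genes at or near background, namely Bmp2, Smad6 and Nog in KO against WT and Smad6 in KO against I53A. The higher genes at an unadjusted p under 0.05 also include Bmp2 in KO against WT, and Bmp2 and Nog in KO against I53A. The median change of the 10 genes was 0.47 in KO, 0.22 in I53A and 0.03 between the mutants, beside −0.02, −0.01 and −0.02 for all genes. These medians include Bmp2, Smad6 and Nog, which were at or near background. Over the 7 genes above background on all arrays of at least 1 group they were 0.16, 0.28 and −0.19, beside −0.03, 0.01 and −0.04 for all genes so measured.

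**Figure D1:**
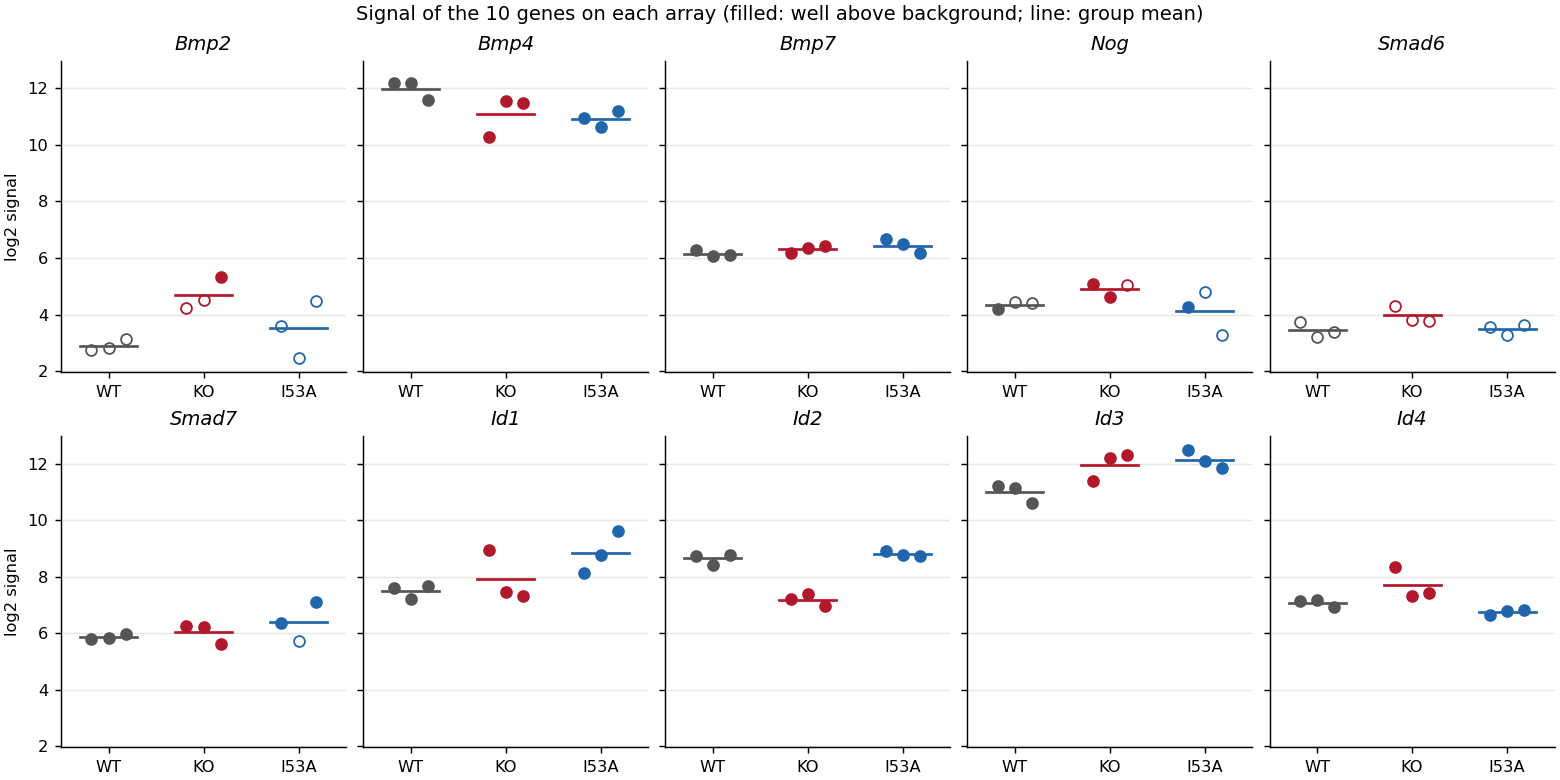
Log2 signal (vertical axis) of the 10 genes on the 3 WT, 3 KO and 3 I53A arrays, 1 point per array and a line at each group mean, with filled points well above background and open points not. Id2 lies between 6.97 and 7.38 on the KO arrays and between 8.41 and 8.91 on the other 6, while Bmp2 is filled on KO 3 only and Smad6 on none.

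Id3 had a higher signal in both mutants and Id1 in I53A, with no call. Id3 (chr4:136143822-136145392), which shares its E protein partners with Id1, had a log2 signal of 11.22, 11.15 and 10.59 in WT, of 11.38, 12.18 and 12.30 in KO and of 12.47, 12.10 and 11.84 in I53A. Every mutant array lay above every WT array, and the mutants overlapped. The difference from WT was 0.96 in KO (SE 0.31, interval 0.27 to 1.65, limma adjusted p = 0.127) and 1.15 in I53A (interval 0.46 to 1.84, adjusted p = 0.213). KO and I53A share the WT arrays, so these values are not independent of each other. Id1 (chr2:152736251-152737410), the classic early BMP target, had 7.58, 7.19 and 7.67 in WT, 8.93, 7.45 and 7.33 in KO and 8.11, 8.76 and 9.63 in I53A. The KO group overlapped WT because of KO 2 and KO 3, while all 3 I53A arrays lay above WT. The I53A difference was 1.35 (SE 0.47, interval 0.30 to 2.40, limma unadjusted p = 0.0167, adjusted p = 0.388). The KO difference was 0.42 (SE 0.47, interval −0.63 to 1.47, adjusted p = 0.708) and became −0.09 without KO 1.

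Id4 (chr13:48261116-48266028), which is best known in neural progenitors, had its highest mean in KO and its lowest in I53A, with no call. Its log2 signal was 7.14, 7.16 and 6.92 in WT, 8.34, 7.32 and 7.42 in KO and 6.65, 6.78 and 6.80 in I53A, so that no groups overlapped and KO was the highest. The interval of the KO difference (0.62, −0.01 to 1.24, limma adjusted p = 0.295) and that of the I53A difference (−0.33, −0.96 to 0.30, adjusted p = 0.774) both included 0. KO exceeded I53A by 0.95 (SE 0.28, interval 0.32 to 1.57, limma unadjusted p = 0.0071), which did not pass after adjustment (limma adjusted p = 0.181). KO 1, the KO array on slide 2, was the highest KO array for Id1 and Id4 and the lowest for Id3 and Bmp4. On slide 1 alone the Id4 difference of KO from WT was 0.22, and on slide 2 it was 1.42. For Id1 the same values were 0.00 and 1.27. The part of the slide in these differences was not tested.

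Among the ligands, Bmp4 had a lower signal in both mutants without a call. Bmp4 (chr14:46383525-46390669) is a ligand that mESCs make themselves and that in serum-free culture replaces serum. Its brighter probe had a log2 signal of 12.19, 12.18 and 11.60 in WT, of 10.29, 11.54 and 11.50 in KO and of 10.96, 10.63 and 11.19 in I53A. All mutant arrays lay below all WT arrays, but KO 2 and KO 3 came close to WT 3. The difference was −0.88 in KO (SE 0.36, interval −1.67 to −0.09, limma adjusted p = 0.227) and −1.06 in I53A (interval −1.86 to −0.27, adjusted p = 0.363). The KO value became −0.47 without KO 1. The mean of both probes gave −0.36 in KO and −0.33 in I53A, but it averages in the background signal of the dimmer probe. The dimmer Bmp4 probe was not above background on any array, with means of 2.51 in WT, 2.68 in KO and 2.91 in I53A, and gives no fold.

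Bmp2 (chr2:133552159-133562896), a close relative of Bmp4, was well above background on KO 3 only. Its log2 signal was 2.73, 2.80 and 3.12 in WT, 4.22, 4.52 and 5.31 in KO and 3.60, 2.47 and 4.47 in I53A. KO lay above WT on every array. Since no WT array measured it, only a nominal bound of 2.01-fold is given (fitted change 1.80, SE 0.46, limma adjusted p = 0.06). It was taken on each array against the lowest signal of any probe that counted as above background, or the own signal where higher. Against I53A the nominal bound was 1.55-fold (limma adjusted p = 0.35). That lowest signal is no detection limit for this probe. KO 1 and KO 2 lay over theirs (3.68 and 2.65) without counting as above background. Both bounds are therefore not strict. They hold for the signal as scaled here and rest on a KO mean of 4.69 that includes 2 arrays at background. With normexp background correction the KO difference from WT was only 0.33 (adjusted p = 0.204). The Bmp2 result sat close to the threshold and was called in 4 of the 18 alternatives that tested it, among them the fits without I53A 2 (adjusted p = 0.0251) and without I53A 3 (adjusted p = 0.0313). Bmp7 (chr2:172868012-172940321), which can pair with Bmp2 or Bmp4 in a heterodimer, was above background on all 9 arrays between 6.08 and 6.66. Its groups overlapped in every comparison, with intervals of −0.32 to 0.64 in KO and −0.20 to 0.76 in I53A.

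**Figure D2:**
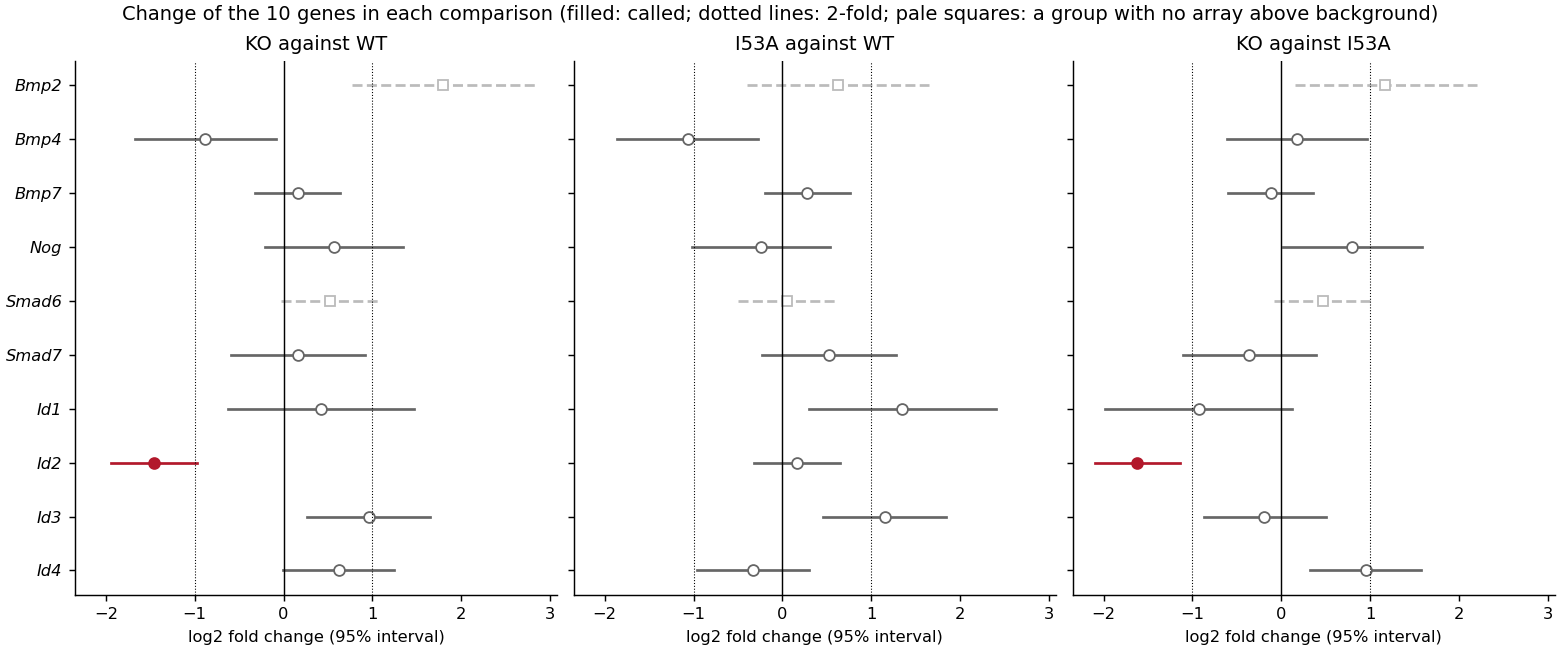
Log2 fold change (horizontal axis) of the 10 genes with its 95% interval from limma in the 3 comparisons, with filled points called and dotted lines at 2-fold. Id2 is the only filled gene, at −1.46 in KO against WT and −1.62 in KO against I53A, and the pale squares with dashed intervals, Bmp2 and Smad6, are fitted values where a group had no array above background.

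The inhibitors gave no call. Smad7 (chr18:75367365-75395935), which blocks the receptors, was above background on all arrays but I53A 2. Its log2 signal ranged from 5.80 to 5.97 in WT, from 5.62 to 6.25 in KO and from 5.73 to 7.10 in I53A, where I53A 3 was the highest of the 9. The differences were 0.16 in KO (interval −0.59 to 0.92) and 0.52 in I53A (interval −0.23 to 1.28). Smad6 (chr9:63953076-64022085), an inhibitor that acts mostly on the BMP branch, was not well above background on any array, from 3.20 to 4.31, so its fitted changes are those of background signal. Nog (chr11:89300638-89302559) was above background on WT 1, KO 1, KO 2 and I53A 1 only, and its log2 signal was 4.20 to 4.43 in WT, 4.63 to 5.08 in KO and 3.28 to 4.80 in I53A. KO lay above WT without overlap, with a fitted change of 0.57 (SE 0.35, interval −0.21 to 1.35, limma adjusted p = 0.453) over 6 arrays of which 3 were at background, and of 0.04 under normexp. Nog lies on chromosome 11, whose 1709 genes had a median change in KO of 0.22 against −0.04 for the other chromosomes, and the part of this in the Nog value was not tested.

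Across the lists of pathway genes, 89 genes were measured, and the 79 that are not among the 10 gave 3 calls in KO, all higher, 0 in I53A and 1 in KO against I53A, lower. The shares of all genes given above for the same calls were 2.92% higher in KO and 0.405% lower in KO against I53A. In I53A limma put 6 of the 79 higher and 4 lower under 0.05 when p was left unadjusted, beside 5.83% and 3.94% of all genes. Msx1, a homeobox gene and known BMP target, rose in KO. Its log2 signal was 5.59, 5.80 and 5.42 in WT, 6.83, 7.19 and 7.40 in KO and 6.24, 6.49 and 6.46 in I53A. KO lay 1.54 above WT (SE 0.23, 2.91-fold, limma adjusted p = 0.00455). I53A lay between, 0.79 above WT (adjusted p = 0.267) and 0.75 below KO (adjusted p = 0.2). Of the 19 known target genes measured, Msx1 was the only one called higher and Id2 the only one called lower in KO. Limma's unadjusted p was under 0.05 for 3 higher and 2 lower in KO, beside 10% and 8.29% of all genes. For I53A against WT it was so for 4 higher, Id1 and Id3 among them, and 0 lower, beside 5.83% and 3.94% of all genes.

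Of the 18 secreted antagonists and modulators measured, 2 were called higher in KO and 0 lower, where 2.92% and 1.17% of all genes were. Fst, which encodes follistatin, a protein that binds activins and some BMPs, went from 5.62, 5.62 and 5.44 in WT to 6.60, 6.80 and 7.41 in KO, a 2.60-fold increase (limma adjusted p = 0.0433) with WT above background on 2 arrays. Bmper, which encodes a secreted BMP-binding protein, was not above background on any WT or I53A array and was on 2 KO arrays. It was higher than in WT by a nominal bound of 2.63-fold as scaled here, taken as for Bmp2 and not strict (limma adjusted p = 0.0309). Under normexp the Bmper change was 0.36 (adjusted p = 0.0958). Neither call held without every array, since that of Fst was lost in 7 of the 9 fits that left out 1 array and that of Bmper in 5. With the slide as a block the Fst call was also lost (adjusted p = 0.0602). Bmp1, a protease that cleaves the antagonist chordin and is not a BMP ligand, was lower in KO than in I53A by 1.19 (adjusted p = 0.0455) on 1 of its 2 probes. The other Bmp1 probe gave −0.03 (adjusted p = 0.989), and the call was lost in all 9 fits without 1 array and with the slide as a block (adjusted p = 0.0601).

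The receiving side of the pathway gave no call. This held for the 10 receptors and co-receptors and for the 8 SMADs measured, in all 3 comparisons. At an unadjusted p under 0.05 limma gave 1 receptor gene higher and 1 lower in KO, 1 higher in I53A, and 1 lower in KO against I53A. It gave 1 SMAD higher in KO, 0 in I53A and 1 higher in KO against I53A. Of all genes, 10% were higher and 8.29% lower at that threshold in KO, and 5.83% and 3.94% in I53A. In KO against I53A these shares were 6.33% and 5.38%. The type II receptor gene Acvr2b, the brightest of the receptor list, had 10.58 ± 0.22 (SD, n = 3) in WT, 9.52 ± 0.55 in KO and 10.34 ± 0.46 in I53A. Its 3 KO arrays lay below all WT arrays (difference −1.06, SE 0.33, limma unadjusted p = 0.00882, adjusted p = 0.114). The co-receptor Eng had means of 7.57 ± 0.31 (SD, n = 3) in WT, 8.12 ± 0.24 in KO and 8.54 ± 0.10 in I53A, with differences from WT of 0.55 (limma adjusted p = 0.265) and 0.97 (adjusted p = 0.17). Smad4, the partner of all receptor-activated SMADs, had 8.76 ± 0.21 (SD, n = 3) in WT, 8.40 ± 0.22 in KO and 8.89 ± 0.21 in I53A. The E protein genes bound by ID, Tcf3, Tcf4 and Tcf12, were at −0.34, −0.41 and −0.20 in KO and at −0.08, 0.02 and −0.08 in I53A. None was called or had an unadjusted p under 0.05 in limma. None of the 11 genes of the LIF list was called either. Limma's unadjusted p was under 0.05 for 1 higher and 1 lower in KO and for 1 higher and 2 lower in I53A. The shares of all genes beside these are those just given.

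**Figure D3:**
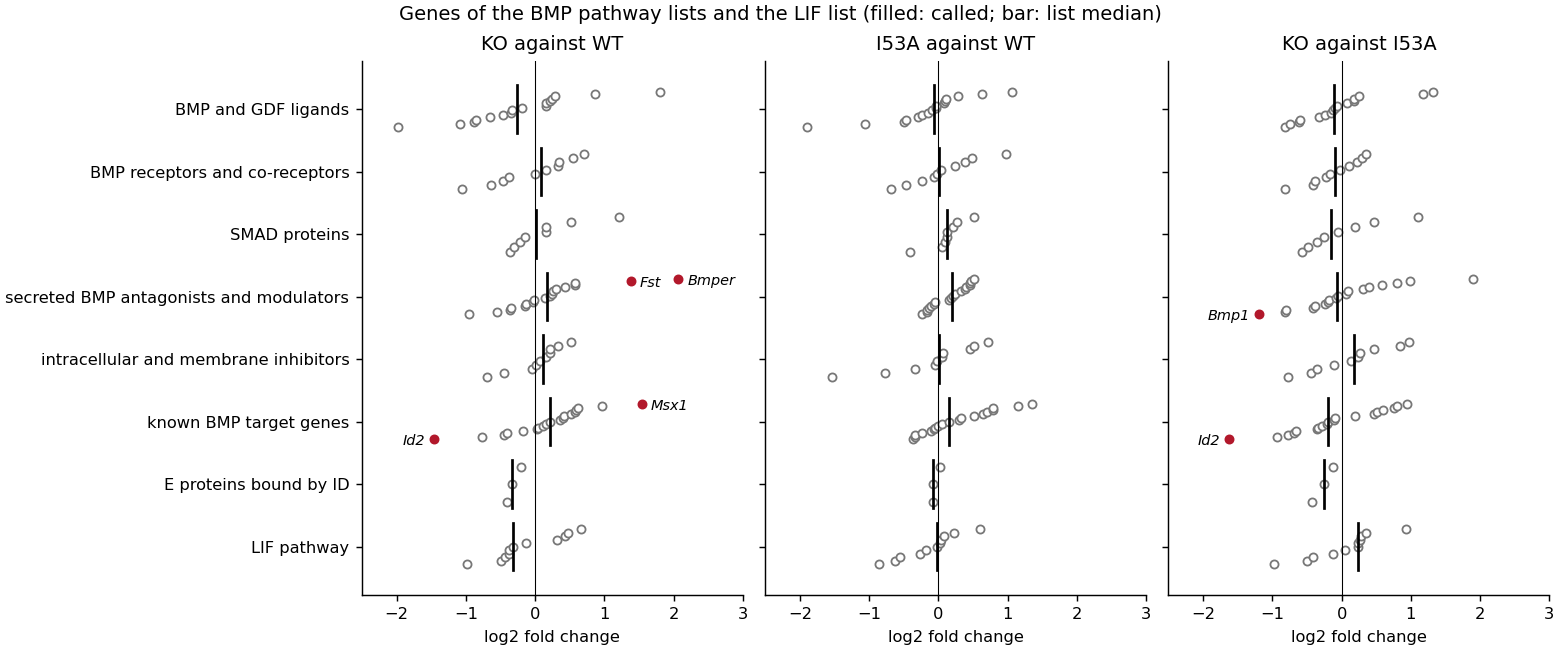
Log2 fold change (horizontal axis) of each measured gene of the BMP lists, the E proteins and the LIF list in the 3 comparisons, 1 point per gene, with called genes filled and named and a bar at the median of each list. Id2 at −1.46 and Msx1 at 1.54 stand at either end of the target list in KO, and no point is filled in I53A against WT.

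Markers of other cell types differed between the groups beside Id2. The mean log2 signal of the 9 trophoblast markers measured was 7.42 to 7.50 in KO, 7.62 to 7.71 in WT and 7.72 to 7.93 in I53A. The log2 of their summed signal was 12.72 to 12.77 in KO, 13.35 to 13.49 in WT and 13.52 to 13.83 in I53A. That sum is mostly the signal of Krt18 and Krt8 (12.82 and 11.45 in WT), while Krt7, the next brightest, differed by 0.04 in KO. Of these markers Eomes was called higher in KO (1.14, limma adjusted p = 0.0458) and 0 lower, where 2.92% and 1.17% of all genes were called. Limma's unadjusted p was under 0.05 in KO for 1 higher and 4 lower, beside 10% and 8.29% of all genes. Elf5 was not above background on any array. The mean log2 signal of the 11 fibroblast markers was 5.15 to 5.37 in KO, 5.68 to 5.89 in WT and 5.68 to 5.97 in I53A. The log2 of their summed signal was 9.50 to 9.62 in KO, 10.35 to 10.44 in WT and 10.41 to 11.07 in I53A. Tagln (9.15 in WT) was the brightest marker in that sum. There Tagln and Acta2, which encode smooth muscle proteins, were called lower and Thy1 higher, and Postn and Lum were not above background on any array. The mean log2 signal of the 10 primitive endoderm markers was 5.48 to 5.87 in KO, 4.38 to 4.62 in WT and 4.61 to 4.80 in I53A. Of these 4 were called higher in KO, namely Gata6, Gata4, Sox17 and Col4a1. Gata4 was above background on 2 KO arrays and Sox17 on 1, and neither was on any WT or I53A array. Sox7, Pdgfra, Dab2 and Foxa2 were not above background on any array. The mean log2 signal of the 6 neural markers was 5.54 to 5.96 in KO, 4.81 to 4.98 in WT and 5.51 to 5.63 in I53A. Nes, which encodes nestin, was above background on all 6 mutant arrays and on no WT array. Its nominal bounds, taken as for Bmp2 and not strict, were 4.82-fold higher in KO (limma adjusted p = 0.00151) and 5.01-fold higher in I53A (limma adjusted p = 0.00884). Neurog1 was called higher in KO, where 1 array was above background. Of the 6 mesoderm markers Mesp2 was called higher in KO (difference 1.81, adjusted p = 0.0214), and Mesp1 and Mixl1 were not above background on any array. Of the 9 embryonic stem cell markers Sox2 was called lower in KO (−1.03, limma adjusted p = 0.0425) and 0 higher, where 1.17% and 2.92% of all genes were. Fbxo15 was called higher in KO than in I53A (limma adjusted p = 0.0208), where 1.06% of all genes were. Limma's unadjusted p was under 0.05 for 3 higher and 3 lower in KO, beside 10% and 8.29% of all genes. For I53A against WT it was so for 0 higher and 4 lower, beside 5.83% and 3.94% of all genes. The part of these cells in the Id2 value was not tested. Of 13 housekeeping genes, 1 of which was not above background on any array, 0 were called in KO. Limma's unadjusted p was under 0.05 there for 3 lower and 0 higher, beside 8.29% and 10% of all genes.

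No gene measured near Id2 was called. Within 1000 kb on each side, 8 other genes were measured, all of them on the side of the lower coordinates, and none was called in any comparison. Limma's unadjusted p was under 0.05 for 0 of them in KO against WT, for 1 in I53A against WT, lower, and for 1 in KO against I53A, higher. Of all genes, 3.94% were lower in I53A and 6.33% higher in KO against I53A at that threshold. The 6 above background on all arrays had KO differences from −0.39 to 0.24. The nearest, Kidins220, 121.2 kb from Id2, had means of 6.51 ± 0.02 (SD, n = 3) in WT and 6.47 ± 0.17 in KO (difference −0.04, SE 0.20, limma adjusted p = 0.951). Rrm2, a subunit of ribonucleotide reductase, had the lowest of the 6 differences, −0.39 (SE 0.24, adjusted p = 0.452).

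**Figure D4:**
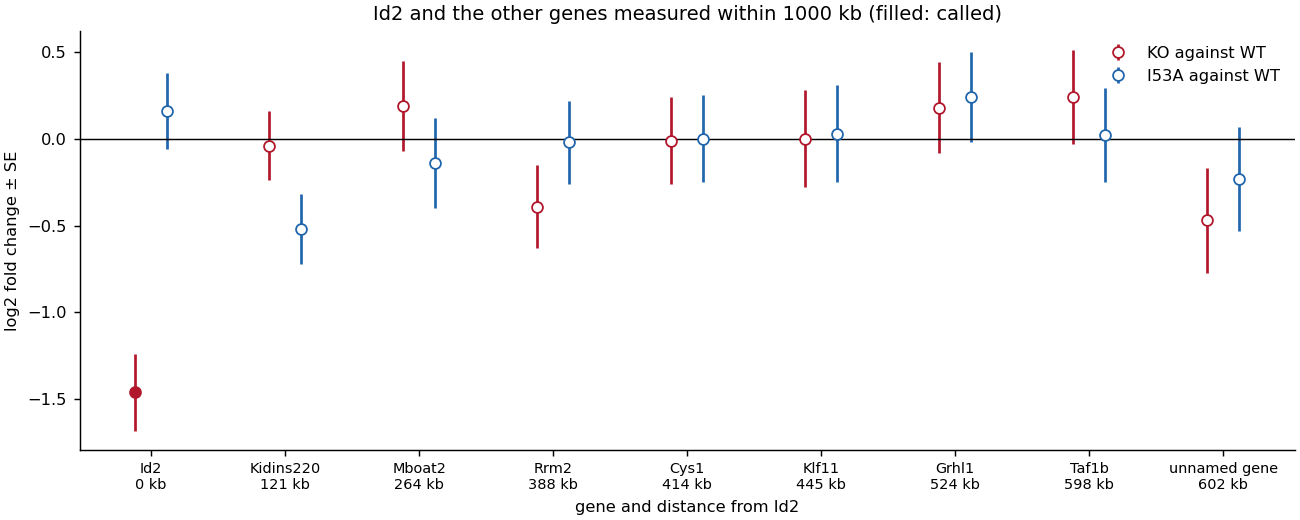
Log2 fold change with its SE (vertical axis) of Id2 and the 8 other genes measured within 1000 kb, ordered by the distance of their start sites from that of Id2 in kb, for KO against WT and I53A against WT. Id2 is the only filled point, at −1.46 in KO, and the genes above background on all arrays lie between −0.39 and 0.24 in KO.

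Over the 9 arrays and 12461 genes above background in at least 1 group, the pattern most like that of Id2 was that of Pdlim2 on chromosome 14 (Pearson r = 0.994), followed by Ptn on chromosome 6 (r = 0.983) and Eif4g3 on chromosome 4 (r = 0.98). These r are descriptions, and the 9 points share the arrays and the normalisation. Ptn, which encodes the growth factor pleiotrophin, had a log2 signal of 8.40, 8.31 and 8.43 in WT, of 7.17, 7.14 and 6.93 in KO and of 8.87, 8.80 and 8.47 in I53A. As for Id2, its 3 KO arrays lay below the 6 others, but Ptn was picked for its likeness to Id2.

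**Figure D5:**
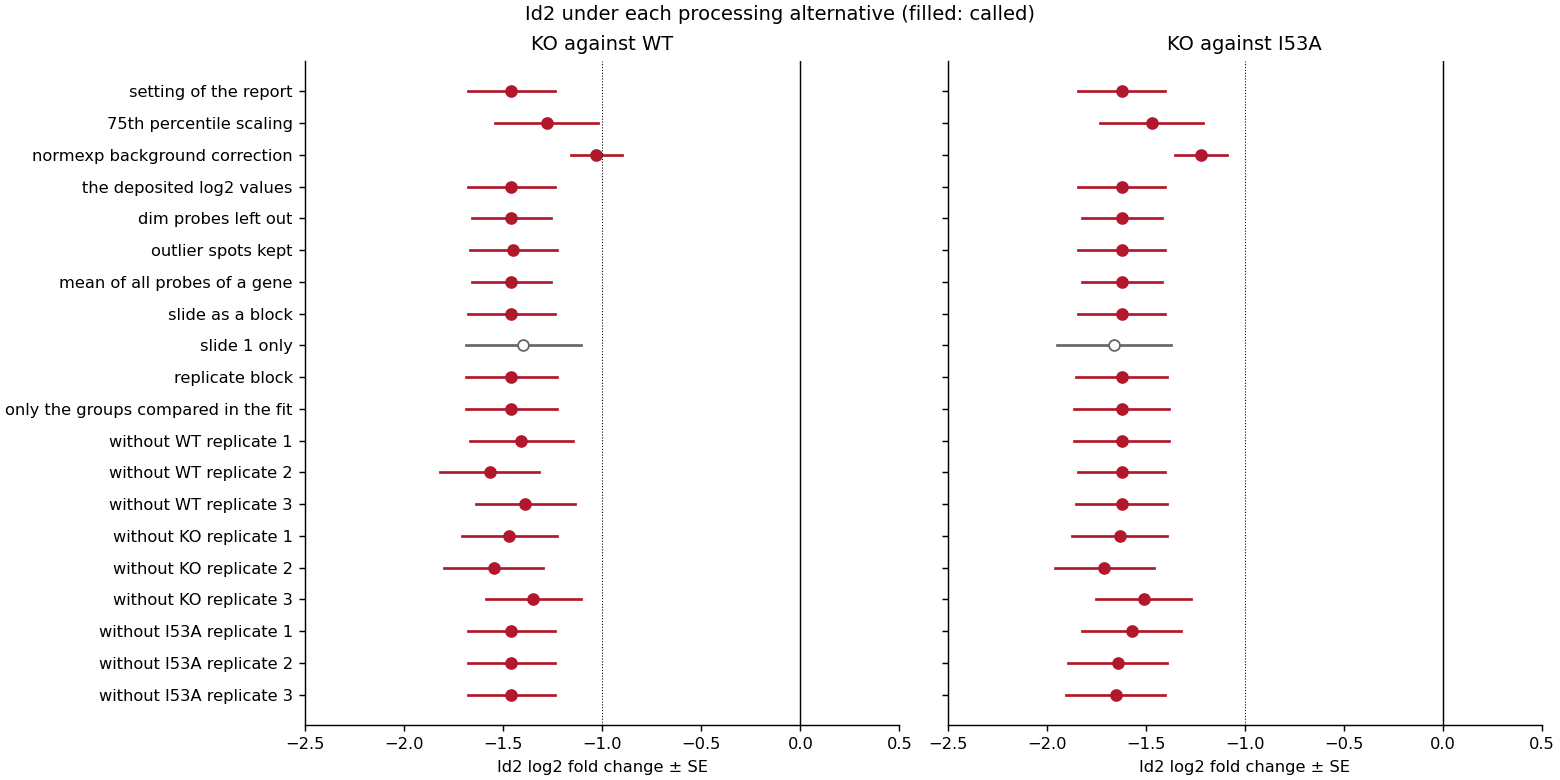
Id2 log2 fold change with its SE (horizontal axis) in KO against WT and KO against I53A under the setting of the report and 19 alternatives, with filled points called. The values run from −1.57 to −1.03 against WT and from −1.71 to −1.22 against I53A, and the slide 1 fit is the open point in both.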

How the data were processed

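RNA of 9 mESC samples (3 WT, 3 KO, 3 I53A, grouped by title) was measured, 1 array each. The authors labelled cRNA with Cy3, hybridised SurePrint G3 mouse arrays and extracted spots with Agilent Feature Extraction 11.5.1.1. The deposited scan files give a processed intensity per spot on a linear scale, background already subtracted. The deposited series table holds log2 values that the authors averaged over repeated probes and quantile normalised, and it is limited to probes assigned to an Ensembl gene. Its columns of the authors' own fold changes and p-values were not used. An aligner for the probes is not given in the sources used here.

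Intensities were reprocessed with limma 3.58.1 under R 4.3.3. Spots flagged as outliers (0.4% to 0.548% of an array, none of them on a probe of the 10 genes) and controls were left out. Log2 values were averaged over repeated probes, quantile normalised over 55681 probes, and the 30170 probes listed in that table were fitted with a mean for each of 3 groups (6 residual degrees of freedom), two-sided moderated tests and Benjamini-Hochberg adjustment over all probes. Symbols came from RefSeq for 24558 probes, through a shared Ensembl gene for 2371, and 3241 had none. The brightest probe stood for a gene. In simulated data with independent noise the script recovered the direction of nearly all known changes. These were put only in brighter probes, so dim genes such as Bmp2, Smad6 and Nog were not tried. The number of arrays, and signal over background, limit the precision.

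All 10 genes are named, together with list genes that were called or among the 3 brightest of their list, markers at background on all arrays and the 3 genes most like Id2. Kidins220 and Rrm2 near Id2 were named after their values had been seen. The members and the lists were chosen with earlier results of these data known. Alternatives were another scaling, normexp (on median signals, since the files hold no mean signal), the deposited log2 values, a filter on dim probes, outlier spots kept, all probes of a gene, the slide as a block, slide 1 alone, the replicate number as a block, only the groups compared, and each array left out. These alternatives were extended to Fst, Bmper, Msx1 and Bmp1 after their values had been seen. No genome was used, so probe positions within genes were not established.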

Additional observations from a re-analysis of the deposited data

Results flagged for a closer look

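The change of Id2 differed between the mutants. It was lower by 1.46 in KO and 0.16 higher in I53A, and the tested difference between both changes was −1.62 on the log2 scale (SE 0.22, limma adjusted p = 0.00606), with all 3 KO arrays below all 3 I53A arrays.

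The change of Bmp1 also differed between the mutants, by −1.19 on the log2 scale (SE 0.24, limma adjusted p = 0.0455), with KO means of 8.01 and I53A means of 9.20. The second probe of Bmp1 gave −0.03 (adjusted p = 0.989).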

How the results depend on the processing

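Id2 kept its direction in all 19 alternatives, from −1.57 to −1.03 in KO against WT and from −1.71 to −1.22 in KO against I53A, and kept its call in all but slide 1 alone, which has 2 arrays per group (adjusted p = 0.0931 and 0.0995). On slide 1 the number of the 10 genes called was therefore 0 in KO against WT and 0 in KO against I53A. It was 2 in KO against WT with the replicate number as a block and 2 with only the groups compared in the fit, the added gene being Bmp2 (adjusted p = 0.0424 and 0.0258). Leaving out each array in turn gave 1 to 2 genes called in KO against WT, 2 without I53A 2 or I53A 3. Correlations of same-numbered arrays of different groups, after the group means were taken out, ran from −0.37 to 0.34. With 3 arrays per group they cannot settle whether the numbers pair the samples. The replicate block gave 584 higher and 213 lower probes in KO against WT, beside 824 and 335 without it.

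Values without a call turned sign in 4 cases. In I53A against WT, slide 1 alone gave −0.05 for Smad6 and 0.22 for Nog, both around background. In KO against I53A, Id3 was 0.06 under 75th percentile scaling and Bmp4 −0.02 with the mean of its probes, of which the dimmer was at background. Leaving out 1 array turned the sign of Id1 in KO against WT (range −0.09 to 0.71) and, in I53A against WT, of Smad6 (−0.07 to 0.21) and Nog (−0.58 to 0.18). In KO against I53A it turned that of Id3 (−0.36 to 0.10) and Bmp4 (−0.03 to 0.59). The causes were not tested.

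Among the other pathway genes, Msx1 kept its call in all 9 fits without 1 array and lost it under normexp (0.87, adjusted p = 0.0457) and on slide 1 (adjusted p = 0.0561). Of the other alternatives, Fst lost its call in 4 of 10 (normexp, slide 1, and the slide or the replicate number as a block, adjusted p = 0.0557 for the last), Bmper in 1 of 9 (normexp) and Bmp1 in 6 of 10. Over all probes, normexp called 233 higher and 93 lower in KO against WT, and slide 1 alone 290 and 42. In I53A against WT the main counts of 71 and 28 became 182 and 84 with dim probes left out, and in KO against I53A 289 and 111 became 101 and 31 under normexp. Signal over background limits Smad6 on every array and Bmp2 and Nog on most.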
